A study of Mus musculus with 12 samples.

Results

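10 genes of the marginal zone B cell and of its NOTCH2 programme are described here across splenic B cells of mouse: S1pr3, Cr2, Cd1d1, Dtx1, Notch2, Hes1, Myof, Plac8, Asb2 and Cd9. They were picked by symbol, and each of the 10 was found among the 55359 genes of the untreated table, the 56691 of the stimulated table and the 55401 of a table of additional wild-type (WT) cells. B cells were taken from spleen by negative selection with beads against CD43, a surface protein of B1 cells, plasma cells, T cells and activated cells, so follicular and marginal zone B cells are left together in each sample. The series compares WT cells with double knockout (DKO) cells, in which loxP-flanked Hnrnpa1 and Hnrnpa2b1 (2 nuclear RNA-binding proteins of splicing and RNA transport) had been deleted by Cre. The sources used here name no Cre driver, strain or age. The groups were untreated WT (3 libraries), untreated DKO (3), WT (2) and DKO (2) cells cultured for 48 h with anti-CD40 at 1 µg/mL and anti-IgM at 10 µg/mL, and additional untreated WT (2).

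Marginal zone B cells sit at the border of the splenic white pulp, where they meet blood-borne antigen. Their formation depends on NOTCH2, a receptor that is cleaved after binding the ligand DLL1 on stromal cells. Its intracellular part then enters the nucleus and, with the DNA-binding protein RBPJ and a Mastermind coactivator, switches on targets such as Hes1 and Dtx1. High CD21 (Cr2), CD1d (Cd1d1), CD9 and the sphingosine phosphate receptor S1PR3 are used to recognise the cells. In bulk libraries, fewer cells of a type and less RNA per cell cannot be told apart, which holds for every value below.

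Promoter sequences are shown for S1pr3, Cd9 and Cr2, in which the core of the RBPJ site occurs, and for Dtx1, the Notch target of the set with the smallest p between genotypes. Each runs 5′ to 3′ on the gene's strand from 250 bases before to 50 bases after the annotated start (RefSeq, GRCm38.p6). Capitals mark TGGGAA, searched on both strands.
S1pr3, chr13:51408368-51408667, plus strand: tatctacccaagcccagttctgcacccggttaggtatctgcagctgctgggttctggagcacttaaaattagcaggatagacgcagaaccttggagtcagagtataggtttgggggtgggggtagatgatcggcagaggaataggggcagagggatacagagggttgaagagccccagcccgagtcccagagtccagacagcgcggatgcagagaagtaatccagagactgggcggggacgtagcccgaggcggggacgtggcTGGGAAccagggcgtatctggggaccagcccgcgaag
Cd9, chr6:125494711-125495010, minus strand: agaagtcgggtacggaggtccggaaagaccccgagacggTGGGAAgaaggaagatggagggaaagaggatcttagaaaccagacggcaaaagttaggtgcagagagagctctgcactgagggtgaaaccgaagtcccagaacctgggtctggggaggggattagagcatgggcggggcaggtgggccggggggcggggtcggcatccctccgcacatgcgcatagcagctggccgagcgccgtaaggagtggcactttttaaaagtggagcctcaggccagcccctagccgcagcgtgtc
Cr2, chr1:195176670-195176969, minus strand: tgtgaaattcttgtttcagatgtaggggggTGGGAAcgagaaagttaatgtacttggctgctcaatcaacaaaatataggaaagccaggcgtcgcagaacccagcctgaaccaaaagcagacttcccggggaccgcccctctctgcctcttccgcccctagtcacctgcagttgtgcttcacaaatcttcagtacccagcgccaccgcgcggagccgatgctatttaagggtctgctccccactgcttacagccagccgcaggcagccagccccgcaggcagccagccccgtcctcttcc
Dtx1, chr5:120711620-120711919, minus strand: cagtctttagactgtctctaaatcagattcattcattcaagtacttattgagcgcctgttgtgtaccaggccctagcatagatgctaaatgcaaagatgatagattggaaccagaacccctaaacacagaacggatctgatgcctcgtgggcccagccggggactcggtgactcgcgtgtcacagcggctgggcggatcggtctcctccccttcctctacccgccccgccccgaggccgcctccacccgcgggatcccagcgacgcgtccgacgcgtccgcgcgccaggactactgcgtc
The motif starts at base 264 of the S1pr3 window, base 40 of the Cd9 window and base 31 of the Cr2 window. Entries were matched for 8 of the 10 genes (10 windows). TGGGAA was held by 4 of the 8 genes, the fourth being Plac8 at its second annotated start only. Counted by window, as the share over all promoters is, 4 of the 10 held it. Of 32851 promoter windows of the same length, 25.6% held TGGGAA. The longer GTGGGAA, which contains that core, was found in the Cd9 and Cr2 windows and in 6.38% of all windows.

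Libraries held from 15090953 to 21731893 counts assigned to genes. Transcripts of Hnrnpa1 stood at 10.6% to 27.4% of the WT mean in untreated DKO libraries and at 13.8% to 14.6% in stimulated ones. For Hnrnpa2b1 these ranges were 17.4% to 32.3% and 18.0% to 22.9%, with untreated DKO number 2 keeping the most of both. In CPM, the counts scaled to library size, 8 pan B cell genes summed to 3747 to 4278 in untreated WT and 3021 to 3475 in untreated DKO libraries, and to 6314 to 6814 and 4661 to 5086 in stimulated ones. The sums of the genotypes did not overlap, and 2 of the 8 genes fell in untreated DKO cells. Of all genes tested, 10.6% fell there. All DKO values lay under all WT values for 20% of genes in untreated and 31.9% in stimulated cells. By Xist and Y-linked genes, WT number 2 and DKO number 1 of the untreated cells read as female and all other libraries as male. One stimulated WT column carries the number 3, which no label gives, and is called the unnumbered library. The labels do not say whether replicates are separate animals, and the p-values describe the spread among these libraries alone, which may be technical in part. Each untreated genotype held libraries of both sexes, so its replicates were not all from 1 animal.

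The first comparison asked how the genes differed between DKO and WT cells without stimulation. S1pr3, Dtx1, Myof, Plac8 and Cd9 were lower in DKO cells, at 25.2% to 53.1% of the WT mean. Notch2 itself, Hes1, Cr2, Cd1d1 and Asb2 did not pass the test. Thus 5 of the 10 genes fell (edgeR's quasi-likelihood test, p adjusted by Benjamini and Hochberg's method over all genes tested and under 0.05), where 10.6% of all 13561 genes tested did so. None rose (0 at an unadjusted p under 0.05 and 0 with DESeq2, against 8.81% of all genes higher). The median log2 fold change of the 10 was -0.91, and that of all genes -0.01. All 3 DKO values lay under all 3 WT values in 6 of the 10, the 5 that fell and Asb2, against 20% of all genes. When the 2 additional libraries joined the WT group, only 2 of the 10, S1pr3 and Dtx1, passed. Without both female libraries 8 passed, and without DKO number 3 only 3 did. The calls over all genes in these 3 fits were 319, 3421 and 1146, against 2638 as fitted, so the counts for the set moved the same way as those for all genes.

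After stimulation every gene of the set except Hes1 had a negative change, though most did not pass. Myof, Cd1d1 and Cr2 were lower in DKO cells, at 32.1% to 52.6% of WT, and Hes1 was higher at 409% of WT. These 3 falls and 1 rise among 10 compare with 6.17% of 14430 genes lower and 5.09% higher. The Hes1 call rested on 7 and 8 counts in the WT libraries and was lost with DESeq2. The median log2 fold change was -0.54 over the 10 and -0.03 over all genes. Both DKO values lay under both WT values in 6 of the 10, against 31.9% of all genes, and above them in 1, Hes1, against 29.7%. With only 2 libraries a group, single libraries weighed much. The 2 stimulated DKO libraries also differed more from each other than the 2 WT ones. Chi-square per degree of freedom between their counts was 57 and 10.8. Of the 10, 2 passed without WT number 1, 2 without the unnumbered WT library and 7 without DKO number 2. Over all genes these fits called 743, 576 and 5977, against 1625 as fitted. In those fits the lone library of a group is assumed to vary like the others.

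**Figure D1:**
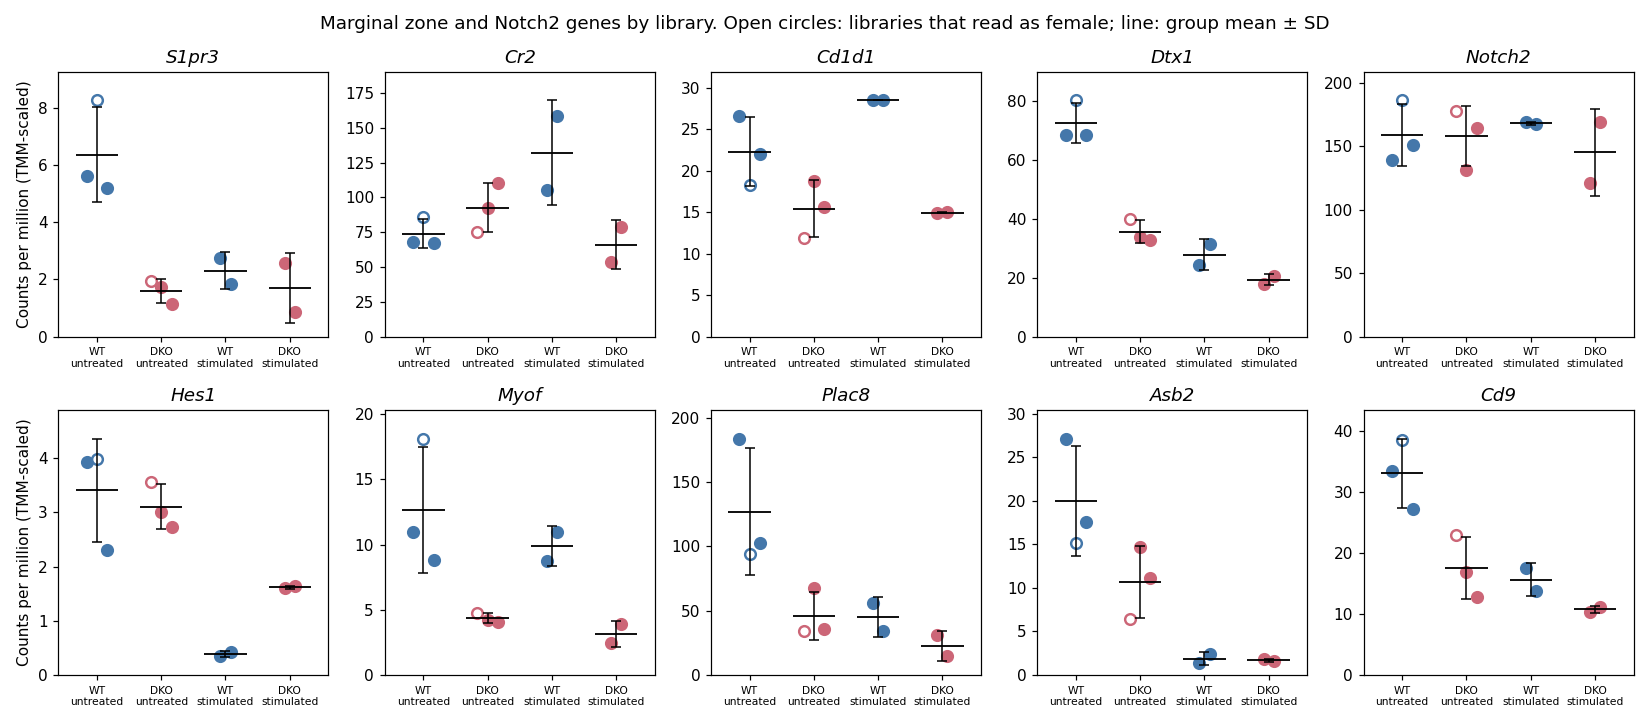
TMM-scaled CPM of the 10 genes (y axes, each from 0) by group (x axes), with 1 circle per library, open where it reads as female, and the group mean ± SD. S1pr3, Dtx1, Myof, Plac8 and Cd9 are lower in untreated DKO than in untreated WT libraries, while the Notch2 values of all groups overlap.

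**Figure D2:**
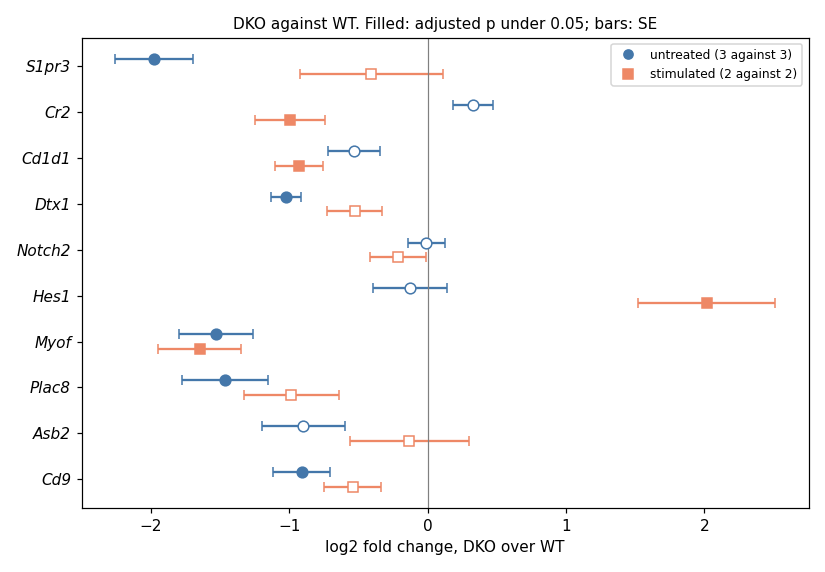
Log2 fold change of DKO over WT (x axis) for each gene (y axis) in untreated (circles) and stimulated (squares) cells, with SE bars and filled symbols for adjusted p under 0.05. Myof is low in both states, Cr2 and Cd1d1 passed on the lower side only after stimulation, and Hes1 stands at 2.02 after stimulation.

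The receptor gene Notch2 (ENSMUSG00000027878; GRCm39 chromosome 3, 97920843 to 98057677, plus strand) passed no test between genotypes or states as fitted. Its untreated WT libraries numbered 1, 2 and 3 had 139, 186 and 152 CPM (TMM-scaled in the fit of their own table, as are all values by library below), and the DKO libraries 178, 132 and 165. The groups overlapped. The log2 fold change was -0.01 ± 0.13 (± SE from the F statistic; edgeR adjusted p = 0.969). In stimulated cells WT had 169 and 168 CPM and DKO 121 and 170, a change of -0.21 ± 0.20 (edgeR adjusted p = 0.513). It passed without DKO number 2, at -0.43 (edgeR adjusted p = 0.00625, range 0.00625 to 0.967 over 10 alternatives). Stimulated against untreated cells gave 0.10 ± 0.17 in WT and -0.08 ± 0.17 in DKO (edgeR adjusted p = 0.660 and 0.761). Culture, stimulation and deposited table changed together in this comparison. An effect of stimulation, here and below, therefore stands for them jointly.

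Dtx1 (ENSMUSG00000029603; chromosome 5, 120818267 to 120849992, minus strand) encodes the ubiquitin ligase deltex 1, a direct Notch target. The untreated WT libraries had 68.6, 80.3 and 68.5 CPM and the DKO libraries 40.1, 33.8 and 32.98. The groups lay far apart, with the lowest WT value well over the highest DKO value. Dtx1 fell by 1.02 ± 0.11 on the log2 scale (edgeR adjusted p = 0.00142) and passed in each of 16 alternatives, where the adjusted p ranged from 8.52e-13 to 0.0385. In stimulated cells WT had 24.2 and 31.5 CPM and DKO 18.1 and 20.6. Both DKO values were again under both WT values, but the change of -0.53 ± 0.20 did not pass (edgeR adjusted p = 0.113). It passed in 2 of 10 alternatives, the single fit and the fit without DKO number 2 (adjusted p from 0.0179 to 0.740). Dtx1 was lower in stimulated than in untreated cells, with log2 fold changes of -1.36 ± 0.15 in WT and -0.83 ± 0.15 in DKO cells (edgeR adjusted p = 2.34e-05 and 0.00117).

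Hes1 (ENSMUSG00000022528; chromosome 16, 29883202 to 29886614, plus strand), a transcriptional repressor and the textbook Notch target, followed another course. Untreated WT libraries had 77, 66 and 46 raw counts and DKO libraries 55, 47 and 41. These ranges overlapped, and the log2 fold change was -0.13 ± 0.27 (edgeR adjusted p = 0.767). In stimulated cells the WT libraries held 7 and 8 counts and the DKO libraries 33 and 27, that is 0.358 and 0.434 against 1.599 and 1.639 CPM. Hes1 was thus 2.02 ± 0.50 higher on the log2 scale in stimulated DKO cells (edgeR adjusted p = 0.0356). The call was lost with DESeq2 and without either WT library, and the adjusted p ranged from 0.00535 to 0.216 over 10 alternatives. In WT cells stimulation changed Hes1 by -3.06 ± 0.39 (edgeR adjusted p = 7.00e-05), and in DKO cells by -0.88 ± 0.32, which did not pass (edgeR adjusted p = 0.0513). The difference between these 2 changes was 2.18 ± 0.50, with an unadjusted p = 0.000874 and an edgeR adjusted p = 0.134.

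S1pr3 (ENSMUSG00000067586; chromosome 13, 51562675 to 51576833, plus strand) encodes a receptor by which marginal zone cells sense sphingosine phosphate in blood. Raw counts in untreated WT libraries were 110, 137 and 104, and in untreated DKO libraries 30, 27 and 17. As CPM these were 5.62, 8.25 and 5.21 against 1.94, 1.73 and 1.14, with a wide gap between the genotypes. S1pr3 fell by 1.98 ± 0.28 (edgeR adjusted p = 0.00346), the largest fold of the 10 genes, and passed in all 16 alternatives (adjusted p from 1.00e-07 to 0.0331). In stimulated cells WT had 2.76 and 1.84 CPM and DKO 2.57 and 0.850. The values overlapped, at -0.41 ± 0.52 (edgeR adjusted p = 0.635). Stimulation changed S1pr3 by -1.44 ± 0.41 in WT cells (edgeR adjusted p = 0.0145), a call lost without the unnumbered WT library, with adjusted p from 6.96e-05 to 0.142 over 16 alternatives. In DKO cells, where it was already low, the change was 0.19 ± 0.45 (edgeR adjusted p = 0.779). The difference of the changes was 1.63 ± 0.60 (unadjusted p = 0.0189, edgeR adjusted p = 0.337).

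Cr2 (ENSMUSG00000026616; chromosome 1, 194819119 to 194859024, minus strand) encodes the complement receptors CD21 and CD35 as splice forms, which counts over whole genes do not separate. The untreated WT libraries had 68.2, 85.9 and 67.5 CPM and the DKO libraries 75.4, 92.3 and 110. The groups overlapped through WT number 2 and DKO number 1, both female. The log2 fold change was 0.33 ± 0.15 (edgeR adjusted p = 0.147). In the 4 male libraries the DKO values were the higher ones, at 0.58 (edgeR adjusted p = 0.00188, against a range of 0.00188 to 0.724 over 16 alternatives). After stimulation the order was turned, with 105 and 159 CPM in WT and 53.6 and 78.8 in DKO cells. Cr2 changed there by -0.996 ± 0.25 (edgeR adjusted p = 0.0382), a call lost without the unnumbered WT library (-0.67; adjusted p from 1.24e-05 to 0.348 over 10 alternatives). Stimulation raised Cr2 in WT cells by 0.86 ± 0.20 (edgeR adjusted p = 0.00512; lost without the unnumbered library, adjusted p up to 0.119 over 16 alternatives), and DKO cells gave -0.44 ± 0.21 (edgeR adjusted p = 0.126). The difference of the changes was -1.30 ± 0.29, first of the set by p (unadjusted p = 0.000758, edgeR adjusted p = 0.127). It passed with DESeq2 (adjusted p = 0.00342), without a filter on low counts and without stimulated DKO number 2, with adjusted p from 7.91e-08 to 0.548 over 16 alternatives.

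Cd1d1 (ENSMUSG00000028076; chromosome 3, 86903141 to 86906748, minus strand) encodes CD1d, which presents lipids to natural killer T cells. Untreated WT libraries had 26.6, 18.3 and 22.1 CPM and DKO libraries 11.9, 18.8 and 15.6. DKO number 2 lay above WT number 2, and the change of -0.53 ± 0.19 did not pass (edgeR adjusted p = 0.0817). It passed in 5 of 16 alternatives, a term for sex among them, with adjusted p from 0.00595 to 0.215. In stimulated cells the replicates nearly coincided, with 28.5 and 28.5 CPM in WT and 14.97 and 14.99 in DKO. Cd1d1 changed there by -0.93 ± 0.17 (edgeR adjusted p = 0.0147), a call lost without either WT library (adjusted p from 0.00044 to 0.0787 over 10 alternatives). Its near-identical neighbour Cd1d2 had 8 to 35 counts in the untreated libraries against 184 to 521 for Cd1d1. How reads shared between the copies were counted was not checked.

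Cd9 (ENSMUSG00000030342; chromosome 6, 125437229 to 125471754, minus strand) encodes a tetraspanin that also marks B1 and plasma cells. WT cells before stimulation had 33.4, 38.6 and 27.2 CPM and DKO libraries 22.9, 17.0 and 12.8, with no overlap. Cd9 fell by 0.91 ± 0.21 (edgeR adjusted p = 0.0172). The call was lost without DKO number 2, without DKO number 3 and with the additional WT libraries as WT (adjusted p from 5.02e-05 to 0.121 over 16 alternatives). Stimulated WT cells had 17.5 and 13.8 CPM and DKO cells 10.3 and 11.2, a change of -0.54 ± 0.21 (edgeR adjusted p = 0.118) that passed without DKO number 2 alone (adjusted p from 0.0357 to 0.652 over 10 alternatives). Stimulation changed Cd9 by -1.06 ± 0.23 in WT (edgeR adjusted p = 0.00293) and by -0.66 ± 0.23 in DKO cells (edgeR adjusted p = 0.0475). The former was lost without the unnumbered WT library (adjusted p up to 0.0507) and the latter in 10 of 16 alternatives (adjusted p from 0.00405 to 0.172).

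Myof (ENSMUSG00000048612; chromosome 19, 37887484 to 38032025, minus strand) encodes myoferlin, a membrane repair and fusion protein. It was the one gene of the 10 that passed on the lower side in both states. Levels in untreated WT cells were 11.0, 18.1 and 8.86 CPM and in DKO cells 4.78, 4.22 and 4.07, a change of -1.53 ± 0.27 (edgeR adjusted p = 0.00683). The call held in 15 of 16 alternatives, and was lost with the additional WT libraries as WT (adjusted p = 0.0530, range 1.12e-06 to 0.0530). Stimulated WT cells had 8.78 and 11.0 CPM and DKO cells 2.47 and 3.88, a change of -1.65 ± 0.30 (edgeR adjusted p = 0.0135) that passed in all 10 alternatives. Stimulation moved Myof little in comparison, by -0.33 ± 0.28 in WT and -0.42 ± 0.32 in DKO cells (edgeR adjusted p = 0.364 and 0.337).

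Plac8 (ENSMUSG00000029322; chromosome 5, 100701591 to 100720111, minus strand) encodes a small cysteine-rich protein also made by myeloid and natural killer cells. Untreated WT libraries had 184, 94.4 and 102.9 CPM and DKO libraries 34.6, 67.8 and 36.0. The spread within each genotype was wide, with 1 high library in each, WT number 1 and DKO number 2, yet the genotypes did not overlap. Plac8 fell by 1.46 ± 0.31 (edgeR adjusted p = 0.0137). The call was lost in 3 of 16 alternatives, among them leaving out DKO number 3 and taking the additional libraries as WT (adjusted p from 1.16e-07 to 0.0932). Stimulated WT cells had 56.2 and 34.4 CPM and DKO cells 31.1 and 14.6, a change of -0.98 ± 0.34 (edgeR adjusted p = 0.0920) that passed in 3 of 10 alternatives (adjusted p from 2.11e-05 to 0.351). Stimulation changed Plac8 by -1.47 ± 0.40 in WT (edgeR adjusted p = 0.0107; lost without the unnumbered library, adjusted p up to 0.129) and by -0.94 ± 0.40 in DKO cells (edgeR adjusted p = 0.0917).

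Asb2 (ENSMUSG00000021200; chromosome 12, 103287401 to 103322260, minus strand) encodes a substrate adaptor of a cullin ubiquitin ligase and is a known Notch target. Untreated WT libraries had 27.1, 15.2 and 17.5 CPM and DKO libraries 6.40, 14.7 and 11.1. The groups were apart by a narrow margin only, and the change of -0.90 ± 0.30 did not pass (edgeR adjusted p = 0.0666). It passed in 6 of 16 alternatives, among them DESeq2 and a term for sex, with adjusted p from 0.00157 to 0.555. In stimulated cells Asb2 was nearly gone in both genotypes, with 26 and 45 raw counts in WT and 38 and 26 in DKO libraries (-0.13 ± 0.43, edgeR adjusted p = 0.863). The fall on stimulation was the steepest of the 10 genes, with log2 fold changes of -3.39 ± 0.40 in WT and -2.58 ± 0.40 in DKO cells (edgeR adjusted p = 4.19e-05 and 0.000409).

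Stimulated and untreated cells were set against each other in 1 fit over 10 libraries. Asb2, Hes1, Dtx1, Plac8, S1pr3 and Cd9 fell and Cr2 rose in WT cells. These 6 falls and 1 rise compare with 22.8% of 15006 genes lower and 17.8% higher, and the median log2 fold change was -1.21 for the 10 and -0.02 for all genes. Cd9 and Cr2, whose promoter windows shown above both hold GTGGGAA, moved in opposite directions in WT cells. Their changes in DKO cells were both negative, at -0.66 and -0.44. The part of the motif was not tested. In DKO cells 3 fell (Asb2, Dtx1 and Cd9, against 16.8% of all genes) and none rose (0 at an unadjusted p under 0.05 and 0 with DESeq2, against 16.2% of all genes), with medians of -0.55 and -0.01. Stimulated and untreated values did not overlap for 6 lower and 2 higher genes in WT cells, against 35.3% and 31.7% of all genes, and for 6 lower and 0 higher genes in DKO cells, against 27.7% and 26.3%. None of the 10 passed the interaction of genotype and stimulation (edgeR), where 0.14% of all genes did (0.133% higher and 0.00666% lower). With DESeq2 1 of the 10 passed. At an unadjusted p under 0.05 there were 4 in edgeR. The largest of these p, 0.0233 for Dtx1 (edgeR, unadjusted), ranked 984 by p among all 15006 genes. Culture, stimulation and deposited table changed together, so they cannot be told apart. Without the unnumbered WT library, 3 of the 10 passed in WT cells.

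**Figure D3:**
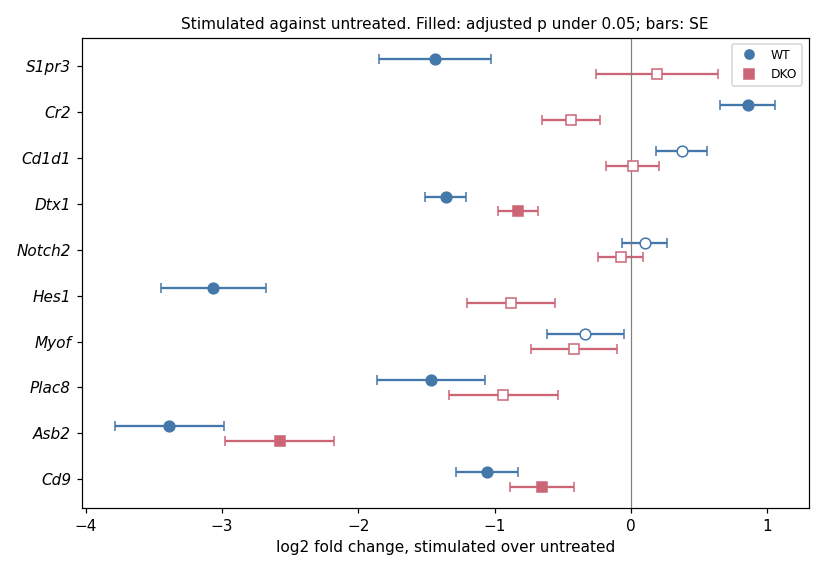
Log2 fold change of stimulated over untreated cells (x axis) for each gene (y axis) in WT (circles) and DKO (squares), with SE bars and filled symbols for adjusted p under 0.05. Asb2 is at the far left in both genotypes, while Hes1 stands at -3.06 in WT and -0.88 in DKO and Cr2 at 0.86 and -0.44.

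Levels were ranked between genes by the authors' FPKM, which are per kilobase of exons and were used for libraries whose columns match 1 sample. In untreated WT cells Plac8 was the most abundant, at 60.3 to 117.7 FPKM. Cd9 (13.8 to 19.2), Notch2 (13.2 to 17.6) and Dtx1 (13.3 to 15.5) came next and overlapped. Cr2 (8.53 to 10.7), Cd1d1 (7.23 to 10.6) and Asb2 (4.36 to 7.81) followed, each overlapping its neighbour in that order. Hes1 (1.17 to 1.99), S1pr3 (1.21 to 1.88) and Myof (0.73 to 1.46) were at the bottom. In stimulated DKO cells Plac8 had come down to 8.98 to 18.5 FPKM and overlapped Notch2 at 10.65 to 15.44.

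Within each genotype the untreated libraries ordered the genes in 2 opposite ways. S1pr3, Dtx1, Hes1, Myof, Cd9 and Notch2 were highest in the female library of both genotypes, WT number 2 and DKO number 1. Cd1d1, Plac8 and Asb2 were lowest in the same 2 libraries. Cr2 did neither. Sums of B cell genes were low there too, as were markers of some other cells, but not of all. Pan B cell genes summed to 3747 CPM in the female WT library (4111 and 4278 in the male ones). In the female DKO library they summed to 3021 (3461 and 3475). Follicular B cell genes gave 1166 (1222 and 1318) in WT and 1312 (1442 and 1541) in DKO. Sums of B1, T cell, platelet and stromal genes were also lowest in both female libraries. Erythroid genes summed to 1.23 and 1.2 CPM in the female WT and DKO libraries and to 3.84 to 31.9 in the male ones. Monocyte and macrophage markers summed to 70.4 CPM in the female WT library (76.7 and 80.5 in the male ones). In the female DKO library they summed to 41.3 (59.0 and 77.0). Plasma cell genes went the other way, at 786 CPM in the female WT library (664 and 661 in the male ones). In the female DKO library they summed to 742 (662 and 686). Sums of dendritic, natural killer and neutrophil markers were not lowest in both female libraries. In all genes tested, 18.8% were highest and 22.1% lowest in both female libraries, beside 6 and 3 of the 10. Such an order was thus not rare among all genes, and whether the set departs from them was not tested. Female and male libraries were then compared in a fit with genotype, a comparison added after the data were seen, and log2 differences of female over male were between -0.75 and 0.60. Only Asb2 passed, at -0.75 ± 0.20 (edgeR adjusted p = 0.0474), where 6.25% of all genes did (4.53% lower and 1.73% higher). In the same fit 3 of 8 tested monocyte and macrophage genes were lower in female libraries (Cd14 at -2.26, Marco at -1.48, Vcam1 at -1.45). So were 3 of 3 erythroid genes (-3.32 to -2.69). Of 8 pan B cell genes 2 were lower and 0 higher, and of 8 follicular genes 2 were lower and 1 higher. Of 5 tested plasma cell genes, Jchain was lower (-1.11) and 1 was higher, with a median of -0.0085. The part of these markers in the lower Cd1d1, Plac8 and Asb2 was not tested. The Asb2 call was lost in 4 of 11 alternatives (adjusted p from 4.52e-05 to 0.310). At an unadjusted p under 0.05, 5 of the 10 were higher and 3 lower. The largest of these p, 0.0343 for S1pr3 (edgeR, unadjusted), ranked only 2469 by p among all 13561 genes, so such p were common. Myof had 0.60 ± 0.19, Cd9 0.48 ± 0.13, Cd1d1 -0.47 ± 0.13, Notch2 0.31 ± 0.09 and Dtx1 0.24 ± 0.07, with edgeR adjusted p = 0.0792, 0.0559, 0.0569, 0.0611 and 0.0733. With 1 female library in each genotype, sex cannot be told apart from anything else these 2 libraries share. The DKO library that kept the most Hnrnpa1, number 2, was also the one with the most Plac8, Asb2 and Cd1d1. S1pr3, Dtx1, Hes1, Myof, Cd9 and Notch2 were instead highest in DKO number 1, which kept the least Hnrnpa1 (10.6% of the WT mean). Cr2 was highest in DKO number 3.

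**Figure D4:**
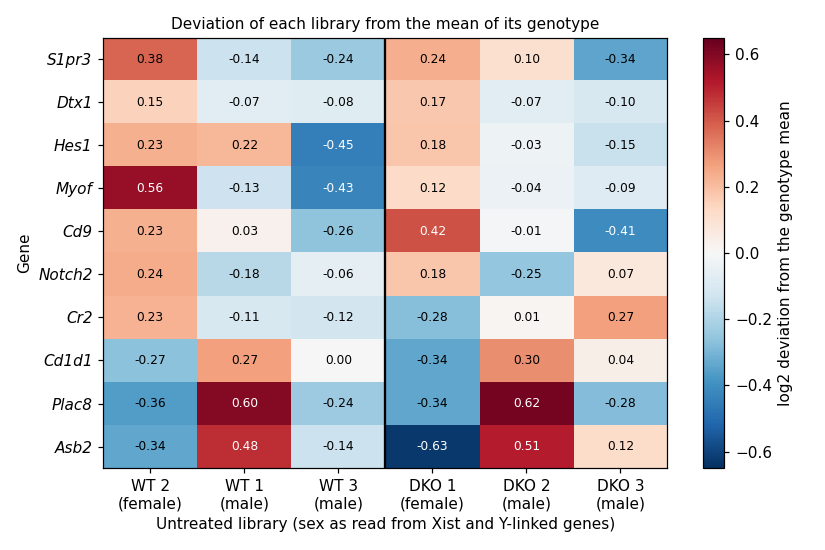
Log2 deviation of each untreated library (x axis, with the sex it reads as) from the mean of its genotype, for each gene (y axis), computed on TMM-scaled CPM plus 0.5. The upper 6 genes are positive in both female libraries, and Cd1d1, Plac8 and Asb2 are negative there.

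Other genes of the Notch pathway were mixed. The counts of genes in lists, here and below, are to be read beside the 10.6% of all genes that were lower and 8.81% higher in untreated cells, and 6.17% and 5.09% in stimulated cells. Of 8 other receptor and ligand genes, 5 were tested in untreated cells and 1 rose, the ligand gene Jag1 (0.77 ± 0.19, edgeR adjusted p = 0.0238). In stimulated cells 4 were tested and 2 rose, the receptor gene Notch1 (1.19 ± 0.17, edgeR adjusted p = 0.00639; 23.6 CPM in WT and 53.9 in DKO) and the ligand gene Jag2 (0.96 ± 0.26, edgeR adjusted p = 0.0463). The Notch2 ligand gene Dll1 was under 0.5 CPM on average in each of these groups. Of 20 tested genes for processing, sugar transfer and trafficking, 4 fell in untreated cells (median -0.18). Pofut1, which adds the O-fucose that Notch needs, changed by -0.61 ± 0.07, Numbl, a relative of the Notch inhibitor Numb, by -1.55 ± 0.38 and Ncstn, a subunit of the gamma-secretase that cleaves Notch, by -0.28 ± 0.08. Among 21 nuclear partners, 5 fell and 3 rose (median -0.13). The Mastermind coactivator gene Maml2 changed by -1.16 ± 0.19 and the corepressor gene Tle4 by -0.58 ± 0.10, while the deacetylase gene Hdac2 rose by 0.43 ± 0.07. Rbpj was among those that fell, by 0.24 ± 0.07 on the log2 scale (edgeR adjusted p = 0.0491). In stimulated cells 3 nuclear partners fell and 2 rose, with the corepressor gene Tle1 at 1.21 ± 0.20 and Hdac2 at 0.73 ± 0.17. Of 8 tested deltex relatives and other targets 1 fell and 1 rose in untreated cells, Dtx3 (-0.61 ± 0.17) and the repressor gene Hes5 (1.02 ± 0.29). In stimulated cells 2 rose, Myc (1.08 ± 0.19) and Hes5 (1.75 ± 0.35, from 1.44 to 4.87 CPM), beside the rise in Hes1.

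Further marginal zone genes were mixed. Of 12 tested, 4 fell and 1 rose in untreated cells (median -0.34, beside -0.01 over all genes), and 3 fell and 1 rose in stimulated cells (median -0.28). Tm6sf1 changed by -1.68 ± 0.20 (19.3 CPM in WT and 6.01 in DKO), Pik3cg, a phosphoinositide kinase subunit gene, by -1.38 ± 0.18 and Cnr2, the cannabinoid receptor gene that helps hold these cells in place, by -0.75 ± 0.11 in untreated cells. In stimulated cells Pik3cg stood at -1.55 ± 0.19 and Sema7a at 1.14 ± 0.21. Cd36, a scavenger receptor gene high in marginal zone cells, stood at -0.24 in untreated cells (edgeR adjusted p = 0.143), and Il9r at 0.03 (edgeR adjusted p = 0.900). Among 22 fate regulators 2 fell and 1 rose in untreated cells, which is no more than the shares over all genes. Klf2, a restraint on the marginal zone fate, changed by -1.11 ± 0.19, Irf8 by -0.64 ± 0.15 and Nfkb2 by 0.25 ± 0.06. Of 3 tested other sphingosine phosphate receptors, S1pr1 fell (-1.44 ± 0.23; 5.32 CPM in WT and 1.95 in DKO). Of 8 follicular genes 2 rose and 1 fell (median -0.15), the former being Fcer2a, which encodes CD23, at 0.90 ± 0.17 and Ighd at 0.31 ± 0.08. Of 12 coreceptor partners and other tetraspanins 3 rose and 2 fell (median 0.0024). Tspan33 stood at 1.24 ± 0.11, Cd82 at 0.60 ± 0.06 and Tspan3 at 0.66 ± 0.12, while Cd53 fell, as Cd9 did, at -0.44 ± 0.11.

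Some of the genes are also made by other cells, and their markers were read beside them. B1 markers summed to 161 to 184 CPM in untreated WT and 79.2 to 86.1 in untreated DKO libraries, and 5 of the 6 tested fell (median -1.02), with Ahnak at -1.44 ± 0.19. Plasma cell genes had 2 of 5 tested lower, Xbp1 (-0.60 ± 0.10) and Prdm1 (-1.20 ± 0.27), at summed levels of 661 to 786 CPM in WT and 662 to 742 in DKO. Of 8 tested markers of monocytes and macrophages, Adgre1 fell (-1.12 ± 0.17), and the marker sums were of 70.4 to 80.5 CPM in WT and 41.3 to 77.0 in DKO. Stromal and endothelial genes summed to 54.3 to 75.1 and 24.5 to 33.4 CPM, mostly of Pecam1 (-1.11 ± 0.15), which B cells also express. Markers of natural killer cells summed to 0.390 to 1.62 CPM, of platelets to 0.505 to 2.14 and of neutrophils to 0 to 5.02 over the 6 untreated libraries. T cell markers summed to 46.7 to 101.5 CPM, nearly all of it Lck, while Cd3e and Cd3d were each under 0.2 CPM on average. The part of B1 and plasma cell markers in the lower Cd9 and Plac8 was not tested.

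Over the 10 libraries of 4 groups, the genes closest to 3 of the set were found by Pearson's r of log2 CPM among genes with a mean of 5 CPM or more. The points share libraries and group differences, so r is a description. S1pr3 was closest to Usp5 (r = 0.977), Trappc6b (0.967) and Ptpn1 (0.963). Dtx1 was closest to Gphn (0.985), Tubb2a (0.972) and the germinal centre repressor gene Bcl6 (0.968), and within the set to Cd9 (0.930). Cr2 was closest to Kbtbd2 (0.935), Tmed8 (0.911) and Bmt2 (0.910), and had r = -0.359 with S1pr3 and -0.165 with Dtx1.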

How the data were processed

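Values used here were raw counts per Ensembl gene and FPKM as deposited by the authors, with the exonic lengths behind the FPKM, in 3 tables. FPKM columns that match a group but no single sample (3 columns) were not used. Per the submitters' processing notes, FastQC 0.10.1, cutadapt 1.9.1, HISAT2 2.2.1, HTSeq 0.6.1 and GRCm39 were used. No source used here gives the strand setting or annotation release. Genes overlapping the 10 had at most 82 counts over 6 untreated libraries, that one beside 16120 for Notch2. Tests on counts used edgeR 4.0.16 under R 4.3.3 (two-sided quasi-likelihood; TMM scaling; filterByExpr, minimum count 10 and minimum total 15; Benjamini-Hochberg adjustment, threshold 0.05). Untreated and stimulated cells were fitted separately, and 1 fit over 10 libraries gave interaction and stimulation. SEs are the absolute log2 change over the square root of F. Alternatives were DESeq2 1.42.0, RLE scaling, no filter, a filter of 1 CPM, each library left out, a replicate block, a single fit, immunoglobulin genes left out, a sex term and the additional libraries as WT. Fits without the female libraries, and the sex comparison, were chosen after seeing the data. Simulated counts served to test the fits. The genes, lists and tests were chosen with earlier results of these data known. Named genes are the 10, those of each list with the smallest p (at most 3 in untreated and 2 in stimulated cells), and the 3 most like S1pr3, Dtx1 and Cr2. Rbpj, Dll1, Cd36, Il9r, Lck, Cd3e and Cd3d were added for their known roles after their values were seen. So were Tspan3, Cd53 and the markers given with the sex comparison. Some genes of the lists are not reported here.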

Additional observations from a re-analysis of the deposited data

How the results depend on the processing

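Of 160 values of the 10 genes under alternatives, 134 kept direction and side of the threshold in untreated DKO against WT, 148 in the interaction, 153 in stimulated against untreated WT and 135 in stimulated against untreated DKO. The same held for 83 of 100 in stimulated DKO against WT and 92 of 110 in female against male. RLE scaling moved the median of all genes by under 0.1 (log2). In untreated cells 8 of the 10 passed with no filter, 8 without the female libraries and 2 with the additional libraries as WT. Counts over all genes were 2638 as reported, 4392 with the sex term and 319 with the additional libraries. With no filter 3 of the 10 passed the interaction, 5 stimulated against untreated DKO and 6 female against male. DESeq2 called 1 in the interaction and 3 for sex. Over all genes, stimulated cells gave 2847 with no filter and 3429 in the single fit, against 1625. The interaction gave 491 with no filter, 171 with DESeq2 and 62 without the female libraries, against 21. The sex comparison gave 1571 with no filter, against 848.

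Leaving out each library in turn gave, of the 10 genes and of all genes, 3 to 7 and 923 to 2779 in untreated cells, 2 to 7 and 576 to 5977 in stimulated cells, 0 to 3 and 1 to 1244 for the interaction, 3 to 8 and 3557 to 7031 for stimulation in WT, 2 to 4 and 3965 to 5074 in DKO, and 0 to 4 and 247 to 1007 for sex. The lowest counts over all genes for stimulated cells and the interaction came without the unnumbered WT library, and the highest without stimulated DKO number 2.

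Direction turned only for genes that had not passed. Notch2 in untreated cells was 0.0030 in the single fit, 0.11 with the additional libraries and 0.031 without the female ones. Without the female libraries, stimulation gave 0.036 for Myof in WT, and -0.15 for Cd1d1 and 0.014 for Notch2 in DKO. Without immunoglobulin genes Cd1d1 in DKO was -0.000842. Leave-one-out ranges crossed 0 for Notch2 in untreated cells (-0.10 to 0.12), for S1pr3 (-1.44 to 0.20), Notch2 (-0.43 to 0.0089) and Asb2 (-0.51 to 0.36) in stimulated cells, and for Notch2 (-0.39 to 0.019), Myof (-0.46 to 0.18) and Plac8 (-0.17 to 1.00) in the interaction. They did so for Myof on stimulation in WT (-0.51 to 0.036), for S1pr3 (-0.89 to 0.77), Cd1d1 (-0.14 to 0.19) and Notch2 (-0.29 to 0.12) in DKO, and for Cr2 between sexes (-0.41 to 0.34). The cause was not tested.

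Deviations of same-numbered untreated libraries correlated at -0.353, -0.351 and 0.139. The 2 female libraries, WT number 2 and DKO number 1, correlated at 0.44. What these 2 share weighs on the other values, so they cannot show whether replicate numbers pair the libraries. With the number as a replicate block, 4 of the 10 and 786 of all genes passed, and Plac8 did not (edgeR adjusted p = 0.0619). No paired analysis was possible because, for the stimulated cells and the fit over 10 libraries, the number in 1 WT column matches no label. Hes1 in stimulated WT cells, at 7 and 8 counts, and S1pr3 in DKO cells, at 14 to 53, rest on few reads, which limits their precision.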

Other observations

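Additional untreated WT libraries, whose titles set them apart, were scaled together with the 6 untreated ones. Dtx1 had 58.3 and 50.3 CPM there, under the 69.2 to 80.9 of the numbered WT libraries and over the 33.3 to 40.9 of DKO. Plac8, with 78.4 and 79.8 CPM, likewise lay between numbered WT (95.0 to 187) and DKO (35.3 to 68.2). S1pr3 had 5.52 and 3.70 CPM, both above the DKO libraries (1.15 to 1.98). Asb2 had 4.36 and 10.7 CPM, both under the numbered WT libraries and within or below the DKO range of 6.53 to 14.8. Cr2 was above every numbered WT library, with 99.9 and 101.3 CPM. In both additional libraries Dtx1, Notch2, Plac8, Asb2 and Cd9 lay below all 3 numbered WT libraries, and Cr2 above. The share of all genes with such an order was not computed, so these orders are not read as particular to the 10. Monocyte and macrophage markers summed to 199 and 251 CPM in these libraries, over the 70.4 to 80.5 of numbered WT.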
